A study of Rattus norvegicus with 12 samples.

Results

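The natriuretic peptides and their receptors form a set of 5 genes, Nppa, Nppb, Npr1, Npr2 and Npr3, among the 14217 genes with a probe set of a single gene symbol on the array. They were chosen by name, with every probe set annotated to one of them taken in, which gave 5 probe sets, 1 for each gene. All 5 passed the filter on dim probe sets. The animals were female Sprague-Dawley rats (Charles River) aged 16 months, and RNA was taken from the left ventricle. The EX group had access to voluntary exercise over its lifetime. The PA group was let into a large box for 1 h of activity on 2 occasions a week. The SED group stayed in a standard cage throughout. Each group had 4 Affymetrix arrays. The design text states 12 animals per group with 4 pooled on an array, which does not match 4 arrays, so p-values measure the spread between these pooled arrays, which may be technical in part, and their number limits the precision.

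Nppa encodes atrial natriuretic peptide and Nppb brain natriuretic peptide, hormones that heart muscle cells release when they are stretched. Both bind Npr1, a receptor with its own guanylyl cyclase that makes cyclic GMP, relaxes vessels and promotes salt loss, while Npr2 is the related receptor for C-type natriuretic peptide and Npr3 removes the peptides from the circulation. In the adult heart Nppa is mainly an atrial gene, and ventricular muscle raises both peptide genes under load.

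The sequences before the starts of the peptide genes are shown because Nppa and Nppb lie next to each other, with 0 annotated protein-coding genes between them, and because the factors known to bind there are described below. They are the 250 bases before the annotated start, from RefSeq on GRCr8, plus strand, 5′ to 3′. The Nppa window is chr5:163711934-163712183 and the Nppb window chr5:163699758-163700007. RefSeq promoter sequences matched 4 of the 5 members. Capitals mark GATAA (the core of GATA factor sites), AAGTG (the core bound by Nkx2-5), CATTCC (M-CAT, bound by TEAD factors) and TATAAA, searched on both strands.
Nppa: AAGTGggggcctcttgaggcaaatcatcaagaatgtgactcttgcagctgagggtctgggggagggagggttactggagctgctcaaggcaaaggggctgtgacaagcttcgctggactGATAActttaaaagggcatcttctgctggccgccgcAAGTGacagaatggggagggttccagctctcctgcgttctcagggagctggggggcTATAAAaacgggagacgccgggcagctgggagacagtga
Nppb: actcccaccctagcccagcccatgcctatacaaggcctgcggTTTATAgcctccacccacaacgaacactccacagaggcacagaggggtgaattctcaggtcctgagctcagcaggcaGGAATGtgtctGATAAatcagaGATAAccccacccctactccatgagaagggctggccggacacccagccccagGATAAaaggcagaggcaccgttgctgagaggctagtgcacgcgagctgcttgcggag
The Nppa window held 1 match to GATAA, at 131 to 127 bases before the start, 2 to AAGTG and 1 to TATAAA. The Nppb window held 3 matches to GATAA, 1 to CATTCC and 1 to TATAAA, the last 2 on the opposite strand, and 0 marked matches overlapped. Of 33469 windows of the same length, 23.5% held GATAA, 40.6% AAGTG, 12.1% CATTCC and 12.9% TATAAA. The CArG box, the site of serum response factor, was searched only in its strict form of CC, a run of A or T, and GG. That form was in neither window and in 1.5% of all windows. Sites that depart from it by a base were not searched.

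The arrays were alike in median, from 5.64 to 5.72 on the log2 scale, but not in spread. The interquartile range was 3.58, 3.84, 3.86 and 3.73 on SED 1 to SED 4. It was wider on every other array, at 3.89 to 4.04 in EX and 3.93 to 4.03 in PA. This difference in spread goes with the SED group and cannot be told apart from it. Quantile normalization, which gives all arrays the same spread, is among the alternatives below. SED 1 stood apart: its correlation with the 11 remaining arrays averaged 0.964, where theirs averaged 0.987 to 0.989. Values that it moves by much are therefore given with and without it. The ventricular light chains Myl2 and Myl3 read 13.03 to 13.22 and 12.90 to 13.01 on every array. Whether differences are compressed at levels this high was not tested. The atrial light chain Myl7 ranged from 4.09 to 10.88 and is set beside Nppa below. Levels are log2 values of 1 probe set each and are compared between arrays, not between genes.

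For none of the 5 genes did a difference between groups pass the test. Nppa and Nppb means were lowest in SED, the Npr1 mean was highest there, and Npr2 was highest in PA and Npr3 in EX. By limma, with Benjamini-Hochberg adjustment over 18626 probe sets, 0 of the 5 members passed an adjusted p of 0.05 in EX against SED, PA against SED or EX against PA. Over all tested probe sets the share called was 0% in each comparison. At an unadjusted p under 0.05 there were 0 of 5 members in EX against SED, where 15.6% of all probe sets lay under it, 1 in PA against SED (15.2% of all) and 1 in EX against PA (2.87% of all). The arrays of the groups overlapped for every member in each comparison, while 7.89%, 8.39% and 2.78% of all probe sets had no overlap in these comparisons. A moderated F test over the 3 groups gave limma adjusted p-values of 0.456 for Npr3 to 0.864 for Nppb, with 0% of all probe sets called. The EX and PA comparisons share the SED arrays.

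**Figure D1:**
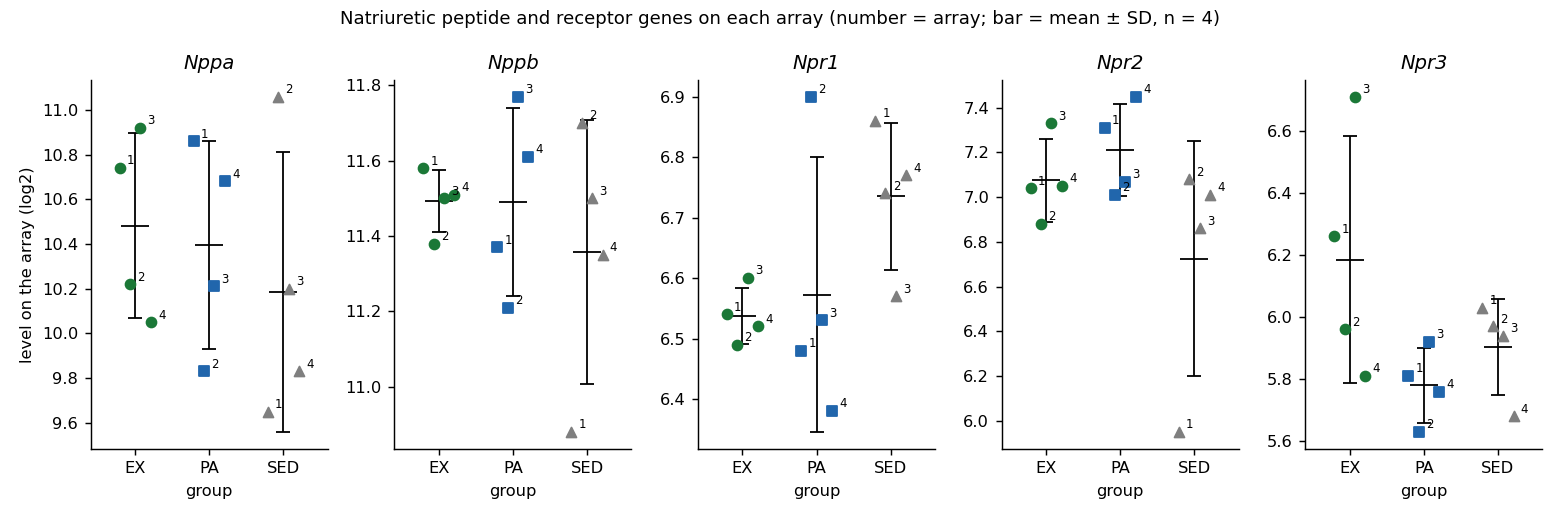
Level of each member (log2) on every array, with EX, PA and SED from left to right, the array number beside each point, and the mean ± SD of 4 arrays. The groups overlap in every panel, and SED 1 is the lowest array for Nppa, Nppb and Npr2.

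Nppa read 10.74, 10.22, 10.92 and 10.05 on EX arrays 1 to 4, and 10.86, 9.83, 10.21 and 10.68 on PA arrays 1 to 4, against 9.65, 11.06, 10.20 and 9.83 on SED arrays 1 to 4. Both the lowest and the highest array were SED arrays, SED 1 and SED 2, 2.66-fold apart. The EX mean was 10.48 ± 0.41 and the PA mean 10.40 ± 0.47, against 10.19 ± 0.63 in SED (SD, n = 4 each). The difference was 0.30 ± 0.32 (SE) in EX against SED, a 1.23-fold level with a 95% interval from 0.756-fold to 2.00-fold (limma adjusted p = 0.685). In PA against SED it was 0.21 ± 0.32 (limma adjusted p = 0.774) and in EX against PA 0.09 ± 0.32 (limma adjusted p = 1). Without SED 1 the differences from SED were 0.12 in EX and 0.03 in PA, and without SED 2 they were 0.59 and 0.50. Nppa varied widely between arrays of 1 group: its SD within groups, 0.51, was above that of 93.8% of tested probe sets.

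Nppb varied less. It read 11.58, 11.38, 11.50 and 11.51 in EX and 11.37, 11.21, 11.77 and 11.61 in PA, against 10.88, 11.70, 11.50 and 11.35 in SED. SED 1 was the lowest array by 0.33 and PA 3 the highest, and the EX arrays lay within 0.20 of each other. Group means were 11.49 ± 0.08 in EX and 11.49 ± 0.25 in PA, against 11.36 ± 0.35 in SED (SD, n = 4 each). The difference was 0.14 ± 0.17 (SE) in EX against SED, 1.10-fold with a 95% interval from 0.850-fold to 1.42-fold (limma adjusted p = 0.731). It was 0.13 ± 0.17 in PA against SED (limma adjusted p = 0.721). The sign of both rested on SED 1, without which they were -0.024 and -0.027. Between EX and PA the difference was 0.0025 ± 0.17 (limma adjusted p = 1).

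Npr1, the cyclase receptor of both cardiac peptides, read 6.54, 6.49, 6.60 and 6.52 in EX and 6.48, 6.90, 6.53 and 6.38 in PA, against 6.86, 6.74, 6.57 and 6.77 in SED. All EX arrays and all PA arrays but PA 2 lay under the SED mean, and SED 3 read lower than EX 3. Means were 6.54 ± 0.05 in EX and 6.57 ± 0.23 in PA, against 6.74 ± 0.12 in SED (SD, n = 4 each). The difference was -0.20 ± 0.11 (SE) in EX against SED, 0.872-fold with a 95% interval from 0.733-fold to 1.04-fold (limma adjusted p = 0.437). It was -0.16 ± 0.11 in PA against SED (limma adjusted p = 0.503) and -0.035 ± 0.11 in EX against PA (limma adjusted p = 1). Npr1 was the steadiest member, with an SD within groups of 0.15, above that of 23.1% of tested probe sets. In PA against SED, leaving out PA 2 moved the difference to -0.27 and leaving out PA 4 to -0.098. Without SED 1 it was -0.16 in EX and -0.12 in PA.

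Npr2, the receptor of C-type natriuretic peptide, read 7.04, 6.88, 7.33 and 7.05 in EX and 7.31, 7.01, 7.07 and 7.45 in PA, against 5.95, 7.08, 6.86 and 7.01 in SED. SED 1 was far the lowest array, 0.91 under the next SED array, and the other SED arrays overlapped those of EX and PA. Means were 7.08 ± 0.19 in EX and 7.21 ± 0.21 in PA, against 6.73 ± 0.52 in SED (SD, n = 4 each). In PA against SED the difference was 0.49 ± 0.22 (SE), 1.40-fold with a 95% interval from 1.00-fold to 1.96-fold (limma unadjusted p = 0.0495, adjusted p = 0.326). It was 0.35 ± 0.22 in EX against SED (limma adjusted p = 0.473) and -0.14 ± 0.22 in EX against PA (limma adjusted p = 1). Without SED 1 the differences from SED were 0.23 in PA and 0.092 in EX, with limma adjusted p-values of 0.527 and 0.819. In EX against PA the difference was -0.22 without EX 3 and -0.055 without PA 4. The mean of the fibroblast markers was also lowest on SED 1, at -0.33 relative to all arrays against -0.10 to 0.12 elsewhere. Some markers of that list were highest on SED 1. The leukocyte and blood markers, at -0.61, had their lowest mean on SED 1 too. So had the genes of peptide processing, breakdown and cyclic GMP signalling, at -0.25. The part of these lists in the Npr2 value was not tested. In whole tissue, fewer cells of a type and less RNA per cell cannot be told apart.

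Npr3, the clearance receptor, read 6.26, 5.96, 6.71 and 5.81 in EX and 5.81, 5.63, 5.92 and 5.76 in PA, against 6.03, 5.97, 5.94 and 5.68 in SED. EX 3 and EX 1 were the highest arrays of all, while EX 2 and EX 4 lay within the range of SED. Means were 6.19 ± 0.40 in EX and 5.78 ± 0.12 in PA, against 5.91 ± 0.15 in SED (SD, n = 4 each). The difference was 0.41 ± 0.17 (SE) in EX against PA, 1.32-fold with a 95% interval from 1.02-fold to 1.72-fold (limma unadjusted p = 0.0359, adjusted p = 1). It was 0.28 ± 0.17 in EX against SED (limma adjusted p = 0.458) and -0.13 ± 0.17 in PA against SED (limma adjusted p = 0.742). Without EX 3 the EX differences were 0.23 from PA and 0.11 from SED. Without SED 1 the differences from SED were 0.32 in EX and -0.083 in PA. In PA against SED the difference was -0.20 without SED 4 and -0.075 without PA 2.

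**Figure D2:**
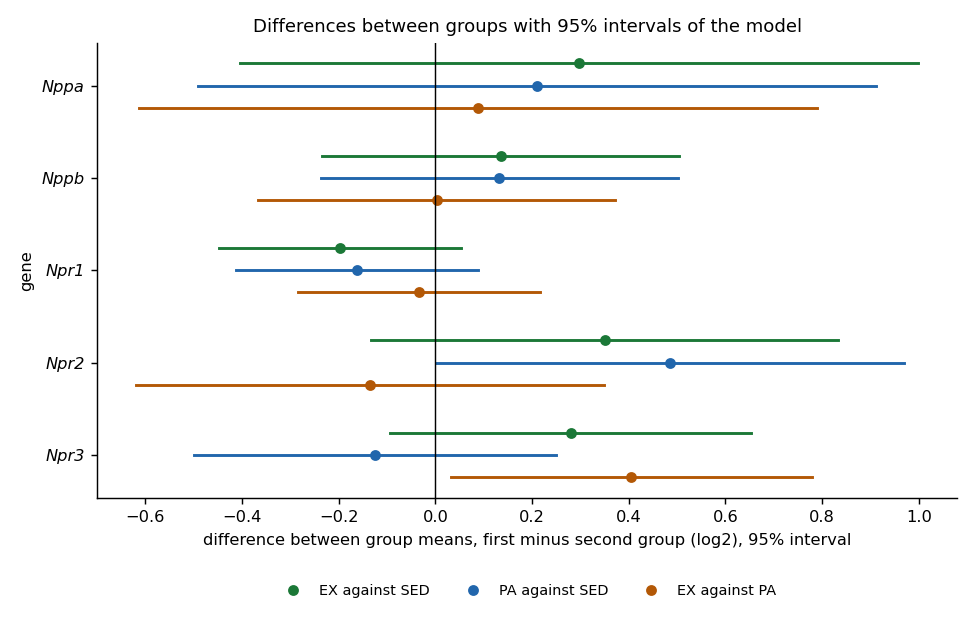
Differences between group means (log2, first minus second group) with 95% intervals of the limma model for each member, with EX against SED above PA against SED and EX against PA. The intervals include 0 except for Npr2 in PA against SED and Npr3 in EX against PA, and 0 members passed after adjustment.

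Within EX, Nppa and Npr3 had the same order of arrays as the atrial marker Sln, and shared their 2 highest arrays with the atrial marker Myl7. Myl7, the atrial myosin light chain, read 10.12 and 10.88 on EX 1 and EX 3 and 4.09 and 4.23 on EX 2 and EX 4, with 6.61 to 8.10 in PA and 6.85 to 9.01 in SED. Sln, an inhibitor of the calcium pump found mainly in atrial muscle, read 6.89, 6.65, 7.52 and 6.04 on EX 1 to EX 4, with 5.55 to 6.28 in PA and 5.62 to 6.44 in SED. EX 3 was the highest EX array for Nppa, Npr3, Myl7 and Sln, and EX 1 was next for each of them. Over the 15 tested atrial list genes other than Nppa, the mean relative to all arrays was 0.19, -0.22, 0.36 and -0.20 on EX 1 to EX 4, 0.029 to 0.077 in PA and -0.20 to 0.0045 in SED. Myl7 carried most of this pattern. Without Myl7 and Sln the mean of the other 13 genes was -0.025, -0.015, 0.07 and 0.043 on EX 1 to EX 4, with 0.033 to 0.19 in PA and -0.17 to -0.0033 in SED. Only 4 of the 15 genes, Myl7, Sln, Kcnj5 and Nr2f1, read higher on both EX 1 and EX 3 than on both EX 2 and EX 4, so the pattern was not that of the whole list. The share of all tested genes with this pattern was not counted. The array order of Sln within EX was also that of genes outside the atrial list, such as Ccn2. Outside EX, Nppa was highest on SED 2, where Sln read 5.62. SED 3 had a higher Myl7 (9.01) than SED 2 (8.70) and a lower Nppa. The part of atrial tissue in the Nppa and Npr3 values was not tested.

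**Figure D3:**
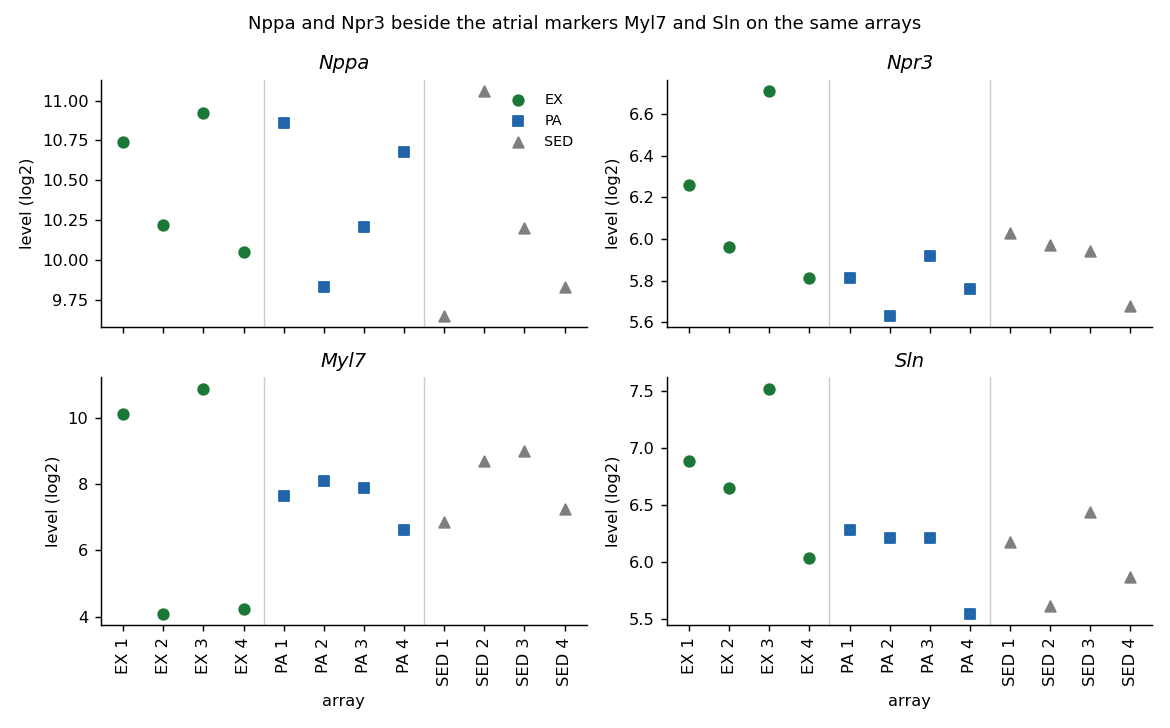
Level (log2) of Nppa, Npr3, Myl7 and Sln on each array, with EX, PA and SED from left to right. EX 1 and EX 3 are the highest EX arrays in all panels, with Myl7 at 10.12 and 10.88 there and 4.09 and 4.23 on EX 2 and EX 4.

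The atrial list had 10 of 16 tested genes higher and 6 lower in EX than in SED (median difference 0.17), and 12 higher and 4 lower in PA, with a median of 0.045. With SED 1 left out, 14 were higher and 2 lower in PA, with a median of 0.095, against 0.032 over all genes. Over all 10244 tested genes, 5828 were higher and 4366 lower in EX (median 0.0325), and 6117 higher and 4059 lower in PA (median 0.0475). None of the list passed the limma test. Itga8, an integrin subunit, had the smallest p of the list in PA against SED, where PA exceeded SED by 0.64 ± 0.14 (SE; limma adjusted p = 0.164). Its mean over all arrays, 4.98, lay just above the filter at 4.94, and all SED arrays, at 4.49 to 4.64, lay under it. Itga8 thus passed the filter only through the level of the EX and PA groups, and its value carries no weight. Kcnj3, a G-protein-gated potassium channel, averaged 9.63 in EX and 9.16 in SED (limma adjusted p = 0.144).

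How the members varied together was described over the 12 arrays for all 10 pairs. Nppa and Npr2 had r = 0.66 (permutation p = 0.00499, adjusted over the pairs 0.0499) and a Spearman rho of 0.72 (permutation p = 0.0105, adjusted 0.105). Without the arrays farthest from the Nppa median, EX 3 and SED 2, r was 0.68. Without SED 1 it was 0.59 with an adjusted permutation p of 0.296, and the call was lost in 10 of 14 alternatives. As deviations from group means r was 0.66 (adjusted permutation p = 0.0751). Nppa and Nppb had r = 0.63 (permutation p = 0.0220, adjusted 0.0807) and rho = 0.58 (permutation p = 0.0520, adjusted 0.190). Their r was 0.58 without EX 3 and SED 2, and 0.48 without SED 1. The pair of neighbouring genes did not pass the threshold.

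Nppb and Npr2 had the highest r of the pairs, 0.72 (permutation p = 0.0242, adjusted 0.0807), with rho = 0.57 (permutation p = 0.0569, adjusted 0.190). This relation did not hold without SED 1 alone, where r was 0.195. Without both PA 2 and SED 1, the arrays farthest from the Nppb median, r was 0.13. Npr1 and Nppb had r = -0.60 (permutation p = 0.0366, adjusted 0.0834) and rho = -0.47 (permutation p = 0.128, adjusted 0.238), and r was -0.048 without PA 2 and SED 1. Npr1 and Npr2 had r = -0.57 (permutation p = 0.0417, adjusted 0.0834) and rho = -0.48 (permutation p = 0.113, adjusted 0.238), and with r = -0.37 when PA 2 and SED 1, the arrays farthest from the Npr1 median, were left out. Without SED 1 alone r was -0.42 for Nppb and Npr1 and -0.38 for Npr1 and Npr2. As deviations from group means r was -0.56 for Nppb and Npr1 and -0.42 for Npr1 and Npr2, and neither pair passed after adjustment. The remaining 5 pairs had adjusted permutation p-values from 0.159 to 0.907. Among them Nppa and Npr1 had r = -0.50 over all arrays and -0.80 without EX 3 and SED 2 (permutation p = 0.0983 over all arrays, adjusted 0.159). Their r was -0.36 without SED 1.

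**Figure D4:**
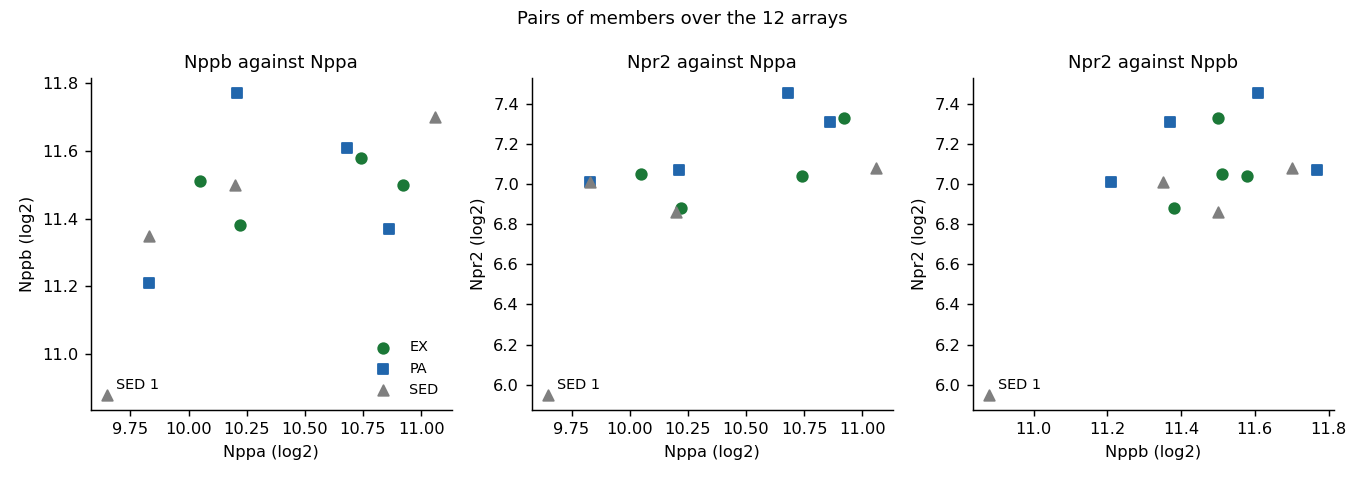
Levels (log2) of Nppb against Nppa, Npr2 against Nppa and Npr2 against Nppb, 1 point per array, with EX, PA and SED marked by colour and shape. SED 1 lies at the low end of all 3 panels. For Npr2 and Nppb r is 0.72 over all arrays, 0.195 without SED 1 and 0.13 when PA 2 and SED 1 are left out.

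The genes most like each member over the 12 arrays, out of 10243 others, are given as a description, since the highest of so many values is high by selection. For Nppa they were Cnksr1, a scaffold of Ras signalling, at r = 0.94 (rho = 0.91), Plce1, a phospholipase C, at 0.84 and Pxdn, a matrix peroxidase, at 0.84. Cnksr1 read 6.52 on SED 2 and 5.28 on SED 1, the same highest and lowest arrays as Nppa, and its r was 0.93 without SED 1. For Nppb they were Cenpb, a centromere protein, at 0.96, Eny2, a subunit of the SAGA complex, at 0.92 and Eapp at 0.92. SED 1 was the lowest array for all 3 of these, as for Nppb, and without it r was 0.90, 0.82 and 0.79.

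For Npr1 the most like genes were Ogfod1, a prolyl hydroxylase, at r = 0.96, Nkain3 at 0.87 and Tbx2, a T-box repressor on the list of natriuretic gene regulators, at 0.86. Tbx2 read 5.93, 5.83, 5.84 and 5.79 in EX and 5.80, 6.18, 5.80 and 5.59 in PA, against 6.17, 6.11, 6.11 and 5.97 in SED. For Npr2 they were Txndc12, a thioredoxin-like protein of the endoplasmic reticulum, at 0.98, Rhobtb3 at 0.97 and the matrix protein gene Ecm2 at 0.97, with r from 0.86 to 0.93 without SED 1. For Npr3 they were Ccn2, a matricellular protein, at 0.87, Farp1 at 0.87 and Ubp1 at 0.86. Ccn2 read 11.45, 11.26, 11.61 and 10.88 on EX 1 to EX 4, the array order of Npr3.

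Among genes of peptide processing, peptide breakdown and cyclic GMP signalling, 13 of the 26 listed were tested, 9 had a probe set below the filter and 4 had none of a single symbol. Corin and Prkg1 were among those with none. Mme, Prkg2, Pde3a, Pde5a and Gucy1a2 were among those below the filter, so the pathway was covered only in part. In EX against SED 9 of the 13 were higher and 4 lower (median difference 0.09), and in PA against SED 10 were higher and 3 lower, with a median of 0.0425. Over all genes the medians were 0.0325 and 0.0475. None of the 13 passed the limma test in any comparison. The groups' arrays did not overlap for 2 of the 13 in EX against SED and 2 in PA against SED. Of all 10244 tested genes this held for 692 and 706. Without SED 1 the median was 0.04 in EX against SED, over all genes 0.014.

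Nppc, the gene of C-type natriuretic peptide, the ligand of Npr2, averaged 5.04 ± 0.21 in EX and 5.23 ± 0.19 in PA, against 5.22 ± 0.27 in SED (SD, n = 4 each; limma adjusted p = 0.618 in EX and 0.973 in PA against SED). Its differences from SED were -0.17 in EX and 0.015 in PA, and -0.061 and 0.13 without SED 1. Nppc averaged 5.16 over all arrays, near the filter at 4.94. Furin, a protease that cleaves the Nppb precursor, differed by 0.022 ± 0.13 (SE) in EX and by -0.073 ± 0.13 in PA against SED, and by 0.055 and -0.04 without SED 1. Pcsk6, a protease that activates the atrial peptide convertase corin, differed by 0.20 ± 0.11 in EX and 0.17 ± 0.11 in PA, and by 0.081 and 0.051 without SED 1. Dpp4, a peptidase that trims the Nppb peptide, had arrays from 7.43 to 8.08 in EX and 7.62 to 8.18 in PA, against 7.29 to 7.40 in SED. Neither the EX nor the PA arrays overlapped those of SED, and the differences were 0.40 ± 0.15 and 0.52 ± 0.15 (SE), with limma adjusted p-values of 0.221 and 0.190. Without SED 1 they were 0.40 and 0.52. Ide, an insulin- and natriuretic-peptide-degrading protease, differed by 0.23 ± 0.21 in both EX and PA and by 0.039 and 0.037 without SED 1.

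The soluble guanylyl cyclase, which makes cyclic GMP in response to nitric oxide, was measured through the subunit genes Gucy1a1 and Gucy1b1. The subunit gene Gucy1a2 lay below the filter. Gucy1b1 read 6.74, 6.90, 7.14 and 6.97 in EX and 6.89, 6.91, 7.01 and 6.97 in PA, against 5.45, 6.47, 6.43 and 6.56 in SED. The SED arrays lay under all others, with SED 1 far under the rest. The differences were 0.71 ± 0.21 (SE) in EX and 0.72 ± 0.21 in PA against SED (limma adjusted p = 0.160 and 0.198), and 0.45 and 0.46 without SED 1. The partner subunit Gucy1a1 differed by 0.25 ± 0.17 in EX and 0.26 ± 0.17 in PA, and by 0.04 and 0.043 without SED 1. The cyclic GMP phosphodiesterase Pde9a differed by 0.33 ± 0.23 in EX and 0.023 ± 0.23 in PA, and by 0.18 and -0.13 without SED 1. Pde2a differed by 0.09 ± 0.13 in each. Vasp, a substrate of the cyclic GMP-dependent kinase, differed by -0.02 ± 0.08 in EX and -0.013 ± 0.08 in PA, and by 0.0033 and 0.011 without SED 1. The inhibitory G protein subunit Gnai2, to which Npr3 couples, differed by 0.013 ± 0.10 and 0.043 ± 0.10, and by 0.019 and 0.049 without SED 1. Kcnj11, the pore of the ATP-sensitive potassium channel, differed by -0.18 ± 0.12 and -0.22 ± 0.12, and Ramp2, a subunit of adrenomedullin receptors, by -0.21 ± 0.18 and 0.043 ± 0.18. The Ramp2 differences were -0.23 and 0.027 without SED 1.

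**Figure D5:**
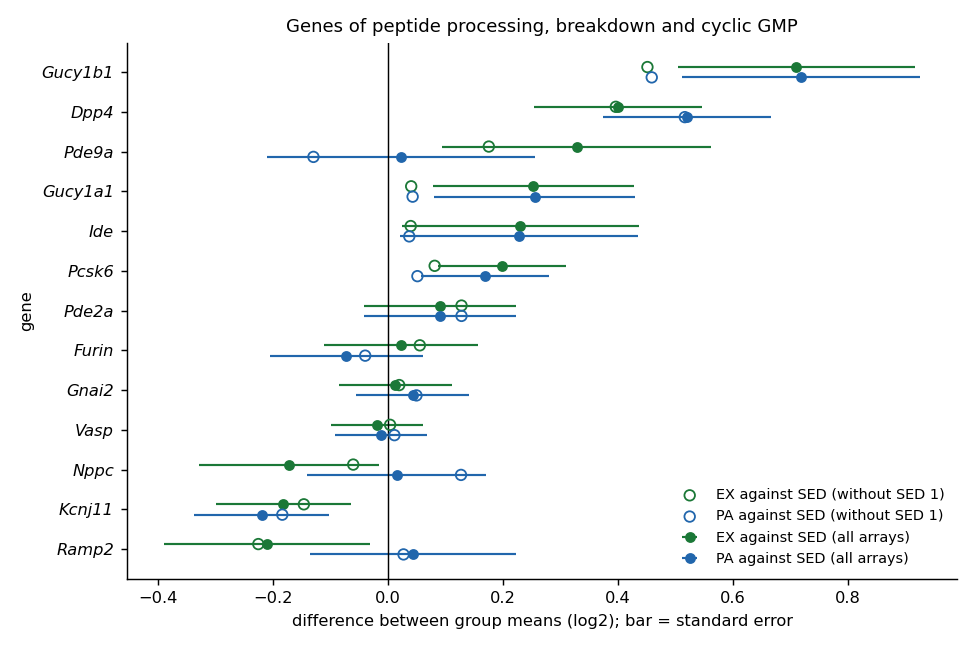
Differences between group means (log2) for the 13 tested genes of peptide processing, breakdown and cyclic GMP signalling, in EX against SED and PA against SED, with filled points and standard errors for all arrays and open points without SED 1. With all arrays Gucy1b1 lies farthest from 0, at 0.71 and 0.72, and without SED 1 it lies at 0.45 and 0.46.

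Of the transcription factors and cofactors known to act on the peptide genes, 23 of 26 listed were tested. In EX against SED 10 were higher and 13 lower (median -0.0375), and in PA against SED 12 were higher and 11 lower (median 0.005), with 0 past the limma threshold. With SED 1 left out, 14 were higher and 9 lower in PA (median 0.056). The groups' arrays did not overlap for 2 of the 23 in EX against SED and 1 in PA against SED. Of all 10244 tested genes this held for 692 and 706. Rest, a repressor of Nppa and Nppb in ventricular muscle, read 6.54, 7.06, 6.56 and 7.21 in EX and 6.70, 6.53, 6.92 and 6.28 in PA, against 5.55, 6.10, 6.31 and 6.06 in SED. All EX arrays lay above all SED arrays, and PA overlapped SED. The differences were 0.84 ± 0.20 (SE) in EX and 0.60 ± 0.20 in PA (limma adjusted p = 0.134 and 0.229), and 0.69 and 0.45 without SED 1.

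Hdac4, a deacetylase that holds back the fetal heart program, averaged 5.64 ± 0.22 in EX and 5.71 ± 0.12 in PA, against 6.10 ± 0.22 in SED (SD, n = 4 each; limma adjusted p = 0.161 and 0.231). Gata6 averaged 6.78 in EX and 6.78 in PA, against 7.14 in SED (limma adjusted p = 0.215 and 0.243). For factors whose core letters are marked in the promoter windows, Gata4 differed by -0.025 ± 0.14 (SE) in EX and 0.18 ± 0.14 in PA, Nkx2-5 by 0.01 ± 0.13 and 0.12 ± 0.13 (limma adjusted p from 0.537 to 0.978), and Tead1 by -0.05 ± 0.09 and -0.0075 ± 0.09. The Tead1 differences were -0.028 and 0.015 without SED 1. The serum response factor gene Srf differed by 0.23 ± 0.12 in EX and 0.29 ± 0.12 in PA (limma adjusted p = 0.372 and 0.278), and by 0.12 and 0.18 without SED 1. In EX against PA, Gata4 differed by -0.20 ± 0.14 (limma adjusted p = 1).

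Markers of ventricular load and the fetal heart program, a list that includes Nppa and Nppb, had 9 of 18 tested genes higher and 9 lower in EX than in SED (median -0.005), and 12 higher and 6 lower in PA (median 0.035), with 0 past the limma threshold. The medians were -0.0013 and 0.03 without SED 1. Myh7, the slow myosin heavy chain, differed by -0.27 ± 0.14 (SE) in EX and -0.13 ± 0.14 in PA against SED, and by -0.15 and 0.00083 without SED 1. Tnni1, the fetal troponin I, averaged 5.57 in EX and 5.92 in SED (limma adjusted p = 0.329). Ankrd2, a stretch-responsive ankyrin protein, differed by -0.32 ± 0.14 in PA against SED (limma adjusted p = 0.307), and by -0.25 without SED 1. Its mean over all arrays, 5.135, lay near the filter at 4.94.

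Of the cell type markers, 0 passed the limma test in any comparison. In EX against SED the median differences were -0.035 for ventricular cardiomyocytes (3 of 14 higher, 11 lower), -0.028 for endothelium and endocardium, where Npr1 and Npr3 are also expressed (5 of 11 higher, 6 lower), and 0.11 for fibroblasts (7 of 9 higher, 2 lower). They were -0.054 for smooth muscle and pericytes (3 of 8 higher, 5 lower) and -0.21 for leukocytes and blood (2 of 12 higher, 10 lower). The differences of the single ventricular cardiomyocyte genes behind their count ran from -0.27 to 0.085. In PA against SED the medians were -0.021, 0.063, 0.093, -0.06 and -0.038 for the same lists in that order. Without SED 1 the fibroblast median in PA against SED was -0.0083, and the leukocyte and blood medians were -0.44 in EX and -0.31 in PA. The endothelial medians were then -0.048 in EX and 0.043 in PA, and those of smooth muscle and pericytes -0.029 and -0.091. The leukocyte and blood list stood at -0.61 on SED 1 and 0.97 on SED 3 relative to its mean over all arrays. The mean of the endothelial markers on EX 1 to EX 4 stood at 0.13, -0.15, 0.073 and -0.052 relative to all arrays. EX 1 and EX 3 were thus the higher EX arrays in the list mean, as for Npr3, but not for every marker. The mean of the smooth muscle and pericyte markers stood at 0.025, 0.0079, 0.15 and -0.12, the array order of Npr3 within EX. The part of these cell types in the Npr3 values was not tested.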

How the data were processed

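Total RNA of the left ventricle, 6 µg per array, was labelled with biotin and hybridised to Affymetrix Rat Genome arrays, per the labels' protocols. The deposited table holds log2 values for 12 arrays in 31099 rows, written to 2 decimals. MAS5 and RMA both appear in the submitters' processing notes, with no statement of which gave the values, so the background correction and normalization behind them are not known. No further scaling was applied because array medians differed by less than 0.2.

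The 57 control rows were left out. Of the other 31042 probe sets, 20826 had 1 gene symbol, 436 several and 9780 none. The test ran on the 18626 probe sets in the upper 60% by mean level, above 4.94. It used limma 3.58.1 (R 4.3.3) with 3 group means over all 12 arrays with 9 residual degrees of freedom, moderated two-sided tests and Benjamini-Hochberg adjustment over all of them (threshold 0.05). A gene was represented by its brightest tested probe set. Correlations used 100000 permutations (Python 3.11.15). Both kinds of test were checked on simulated data. Arrays carry no read depth.

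The members and the 9 gene lists were chosen with earlier results of these data known. Named were all members, any gene of the atrial and the peptide-pathway lists, the up to 4 genes with the smallest p of another list in a comparison, and the 3 genes most like each member. Nkx2-5 and Tead1, whose core letters were searched in the promoters, lie outside this rule and were chosen after their values were seen. Alternatives covered normalization, the filter, an offset of 32, the variance model, array weights, the groups fitted, the replicate number as a block, each array left out, and SED 1 and SED 3 left out together. The gene lists without SED 1, and the atrial list without Myl7 and Sln, were added after seeing the data.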

Additional observations from a re-analysis of the deposited data

Results flagged for a closer look

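Of 156 groups of 4 arrays checked, 3 for each tested gene named in the text, 6 held an array whose gap to its nearest neighbour took a larger share of the group's range than Dixon's 95% critical value. Chance flags about 1 in 20 groups. None of the 15 groups of the 5 members did. The gap was 0.883 of the range for Gucy1b1 in SED and 0.948 for Txndc12 in SED, both with SED 1 lowest. It was 0.904 for Sln in PA, with PA 4 lowest at 5.55, and 0.867 for Itga8 in SED. It was 0.833 for Myl2 in PA, where the arrays lay between 13.06 and 13.12, and 0.871 for Ubp1 in SED, with SED 4 lowest at 7.49.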

How the results depend on the processing

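Under every alternative run, 0 members passed the threshold in any of the 3 comparisons or in the F test. The lowest limma adjusted p-values were 0.289 in EX against SED, 0.239 in PA against SED and 0.795 in EX against PA. Of 109 member values under alternatives in each comparison, 106, 104 and 100 in that order kept their direction, and 1 in EX against PA, Nppb without EX 3, was exactly 0. Those that turned lay between -0.10 and 0.074, and some were larger in size than the difference of the main fit. With array weights Nppb differed by -0.031 in EX and -0.046 in PA against SED, and Nppa by -0.027 in PA. Without SED 1 and SED 3 together these were -0.033, -0.035 and -0.05. With medians centred, Nppb differed by -0.0075 in EX against PA. After quantile normalization the EX against SED differences were 0.255 for Nppa, 0.11 for Nppb, -0.31 for Npr1, 0.25 for Npr2 and 0.23 for Npr3. In the main fit they were 0.30, 0.14, -0.20, 0.35 and 0.28 for the same genes. The Npr1 difference thus grew in size and those of the other members shrank. Leaving out each array in turn gave -0.024 to 0.25 for Nppb in EX against SED and -0.027 to 0.25 in PA against SED. In EX against PA it gave -0.091 to 0.096 for Nppb, -0.10 to 0.24 for Nppa and -0.099 to 0.074 for Npr1. The cause was not tested. The correlation of Nppa and Npr2 lost its call in 10 of 14 alternatives, and 0 pairs passed after quantile normalization or as deviations from group means. Leaving out each array in turn gave 0 to 2 pairs. The r of Npr2 and Npr3 was -0.16 after quantile normalization and -0.34 to 0.21 with each array left out, and that of Npr1 and Npr3 was -0.26 to 0.084. The fibroblast median in PA against SED was -0.0083 without SED 1, against 0.093 with it. Over all probe sets, array weights gave 8 calls in EX against SED and 1 in each of the other comparisons, and leaving out SED 1, or SED 1 and SED 3, gave 2 in EX against SED, where leaving out EX 2 gave 1.

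Arrays with the same replicate number showed no strong shared deviation, with correlations from -0.21 to 0.13 and 4 of 12 over 0.1. Arrays of unlike number were not compared, so these values do not settle whether the numbers pair the arrays. With the replicate number as a block, 0 members passed in any comparison, and the differences were as without it, for example 0.49 for Npr2 in PA against SED (limma adjusted p = 0.353). With 4 arrays per group, differences inside the intervals given could not be resolved.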
